A study of Homo sapiens with 8 samples.

Results

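The nuclear-encoded respiratory chain genes are the protein-coding genes whose symbols begin with NDUF, SDH (A to D), UQCR, COX followed by 4 to 8, or ATP5. GENCODE lists 98 of them on hg38. In the short-read table of HAP1 nuclear RNA, 79 had a row of their own, and 75 of these reached 10 or more normalized counts in 3 or more libraries, out of 26066 genes tested in all. HAP1 is an established human line that descends from KBM-7, a myeloid leukemia line, and carries close to a single set of chromosomes. Nuclei from untreated cells of 3 independent cultures were extracted with urea and the detergent NP-40 substitute, which gave a chromatin pellet and a soluble nucleoplasm, and both fractions received an equal volume of ERCC RNA standards ahead of RNA isolation. After removal of ribosomal RNA, 3 chromatin and 3 nucleoplasm libraries were sequenced with short reads, and 2 chromatin libraries with nanopore long reads. The sample titles name the fraction of each library, whereas the fraction field reads chromatin for all 8 libraries, so the titles were used. HAP1 is a single cell line, so nothing here describes the variation between individuals.

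The respiratory chain sits in the inner mitochondrial membrane. Complexes I and II pass electrons from NADH and succinate to ubiquinone, complex III passes them on to cytochrome c, complex IV passes them to oxygen, and complex V uses the proton gradient that results to make ATP. A few subunits are encoded by mitochondrial DNA, and the rest are transcribed in the nucleus, exported as mRNA, translated in the cytosol and imported.

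The labels held against genes of known location. In the deposited normalized counts, the chromatin-retained RNAs MALAT1, NEAT1, PVT1 and XACT were each at least 4-fold higher in chromatin. GAPDH, B2M and ACTB were lower in chromatin. With the libraries set to equal ERCC totals, all of these RNAs kept their direction. MALAT1, NEAT1, PVT1 and XACT then stood at log2 fold changes of 1.77, 1.08, 1.78 and 3.37, so only XACT stayed past 4-fold. BCR and ABL1, whose fusion KBM-7 carries, were both detected, but values per gene do not show the fusion. Of the 7 blood cell markers listed, 5 had a row. PTPRC, SPI1 and GATA1 were at 0 in all 6 libraries, while KIT averaged 1533 normalized counts in chromatin and 1815 in nucleoplasm, and CD34 1.57 and 0.29. Of 5 fibroblast markers, COL1A1 averaged 470 in chromatin and 794 in nucleoplasm, and COL3A1 0 and 0.29. COL1A2, DCN and LUM were at 0 in all 6 libraries. Recovered read totals over genes ranged from 38816272 to 43714811 in chromatin and from 75680880 to 79477655 in nucleoplasm, so the nucleoplasm values rest on more reads.

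Transcripts of the respiratory chain genes lay mostly on the nucleoplasm side. Summed over the 75 genes, the normalized counts were 164221, 148719 and 166603 in the chromatin libraries and 484296, 483141 and 498852 in the nucleoplasm libraries, which was 0.319% to 0.347% and 0.729% to 0.743% of all gene counts. The median log2 fold change of chromatin over nucleoplasm was -1.94, a 3.83-fold lower level in chromatin, against -0.38 for 12417 other protein-coding genes. In the limma fit over all tested genes, 33 of the 75 (44%) were called in nucleoplasm, with an adjusted p under 0.05 and more than a 4-fold difference. The same call was made for 8.47% of all genes and 5.48% of other protein-coding genes. None of the 75 was called in chromatin, against 21.2% of all genes and 3.95% of other protein-coding genes, and edgeR and DESeq2 gave the same count of 0. At any fold, 67 were lower in chromatin, compared with 45.2% of all genes and 57.3% of other protein-coding genes. A further 6 were higher in chromatin, compared with 44.2% and 30.3%. COX6B2 and NDUFA4L2 did not pass. In these bulk libraries, a difference between fractions in some of the cells and one in all of them cannot be told apart. The 3 chromatin values lay below all 3 nucleoplasm values for 67 genes and above them for 7. Over all 26066 genes tested these counts were 11998 and 11619, and over 12417 other protein-coding genes 7200 and 3833. Fractions without overlap were thus common in these libraries. Chromatin replicate 2 held the lowest chromatin value for 58 of the 75 genes, and nucleoplasm replicate 3 the highest nucleoplasm value for 53. The same counts over all genes were not calculated. Without chromatin replicate 2, 30 of the 75 genes were called in nucleoplasm, against 7.67% of all genes and 4.68% of other protein-coding genes.

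These fold changes depend on how the libraries are put on 1 scale. Setting the ERCC totals equal moved the median over all tested genes from -0.02 to -1.33, and setting the gene totals equal moved it to 0.44. The median of the respiratory chain genes was -3.26 under equal ERCC totals and -1.47 under equal gene totals, with 63 and 17 genes called in nucleoplasm. The background moved too. Under equal ERCC totals 34.4% of all genes and 39.3% of other protein-coding genes were called in nucleoplasm, and under equal gene totals 3.83% and 1.35%. A change of scaling moves all genes by nearly the same amount, so the distance from the median of other protein-coding genes, -1.55 by the size factors of the table, is fixed by construction and is no test of the scaling. The 6 genes that were higher in chromatin had negative values under equal ERCC totals, from -0.029 for NDUFAF6 to -1.13 for NDUFA10, all above the median of all genes on that scale. SDHC and NDUFAF3 were lower in chromatin by the size factors of the table and higher, at 0.15 and 0.23, under equal gene totals. Every fold change below uses the size factors of the table unless another scaling is named.

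**Figure D1:**
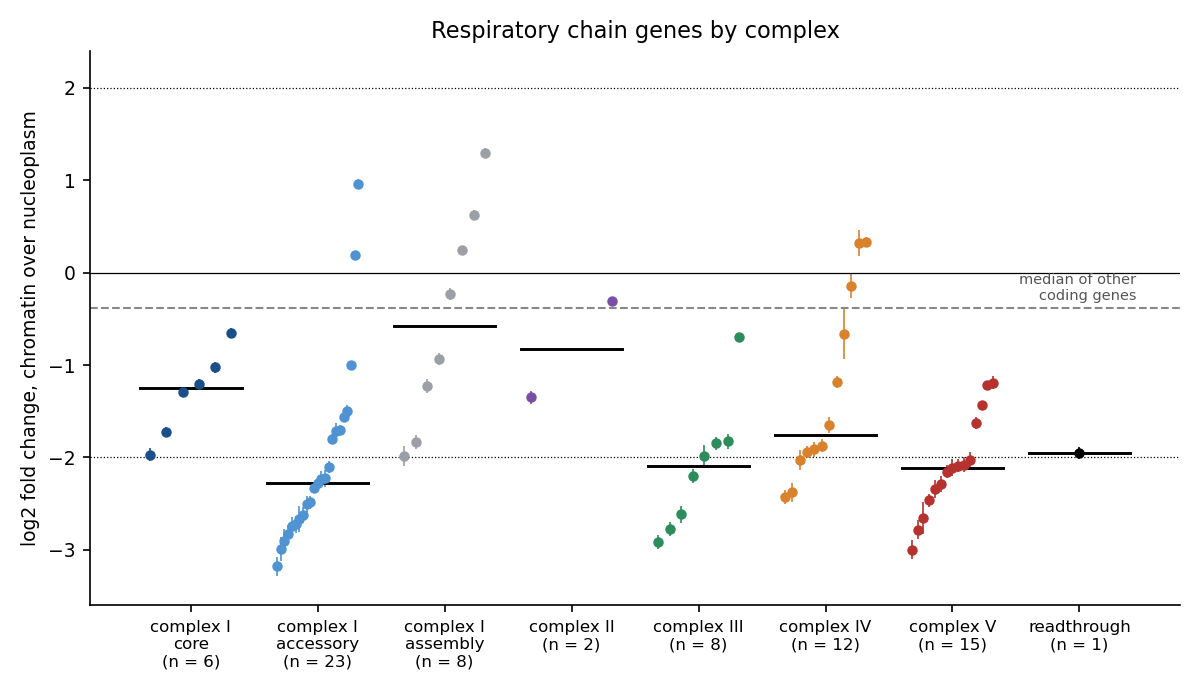
Log2 fold change of chromatin over nucleoplasm for 75 respiratory chain genes, grouped by complex, each point a gene with its standard error from limma (3 libraries against 3), by the size factors of the table. Thick bars are group medians, dotted lines mark a 4-fold difference and the dashed line is the median of other protein-coding genes (-0.38); points above 0 are NDUFA10, NDUFV3, NDUFAF5, NDUFAF6, NDUFAF7, COX7A2L and NDUFA4L2, and all 7 lie below 0 under equal ERCC totals.

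**Figure D2:**
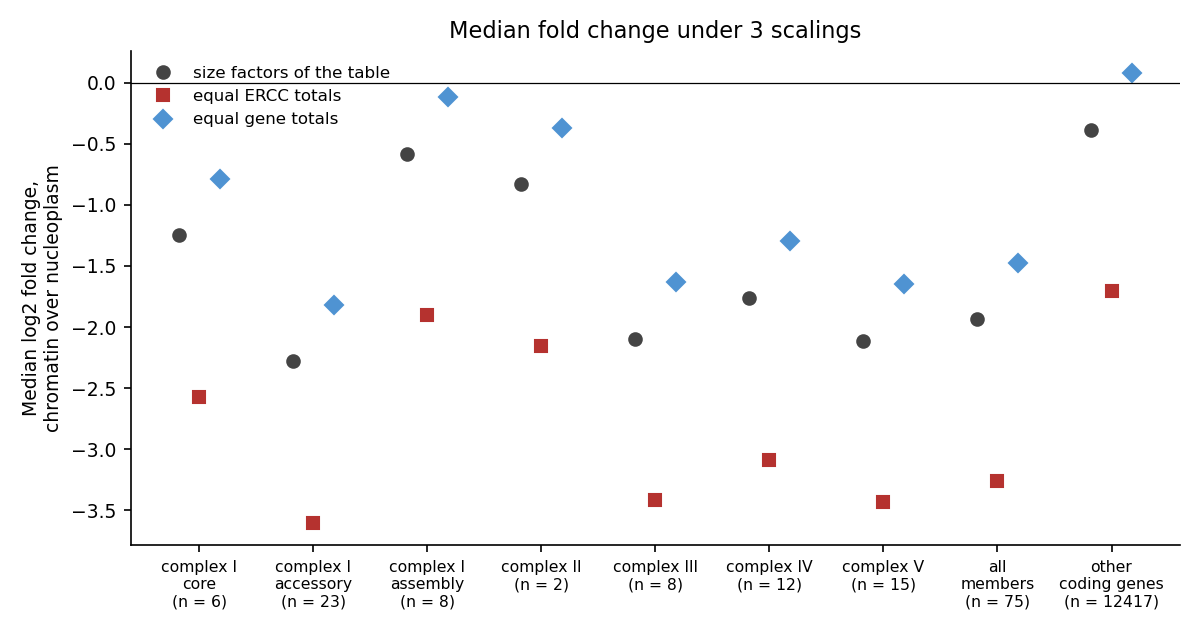
Median log2 fold change of chromatin over nucleoplasm for each complex, for all 75 respiratory chain genes and for 12417 other protein-coding genes, under the size factors of the table (circles), equal ERCC totals (squares) and equal gene totals (diamonds). The scaling shifts all medians together: other protein-coding genes move from -0.38 to -1.70 and 0.08, the respiratory chain genes from -1.94 to -3.26 and -1.47.

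Complex I has a catalytic core, which carries the flavin and the iron-sulfur clusters, and a shell of accessory subunits. All 6 core genes tested were lower in chromatin, with a median log2 fold change of -1.25, and none of the 6 reached the 4-fold limit. NDUFV1, which binds NADH and the flavin, had 4249, 3961 and 4467 normalized counts in chromatin and 13522, 13896 and 14431 in nucleoplasm. The fractions did not overlap, and the level was 3.30-fold lower in chromatin (log2 fold change -1.72, SE 0.0555, limma adjusted p = 1.88e-08). NDUFS7, which holds the iron-sulfur cluster nearest to ubiquinone, had 1163, 1241 and 1214 counts in chromatin and 1861, 1980 and 1843 in nucleoplasm. It was the core gene with the smallest difference, at 1.57-fold (-0.65, SE 0.0514, adjusted p = 3.1e-06). NDUFS3, NDUFS1 and NDUFS8 lay between these, at -1.29, -1.20 and -1.02, and the NDUFS3 row also covered exons of the phosphatase gene PTPMT1. NDUFS1, the largest core subunit, spans 44.7 kb and had 4558 to 5199 counts in chromatin and 11116 to 11187 in nucleoplasm.

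The 23 accessory subunits of complex I had the lowest median of the groups, -2.28, and 15 of them were called (65.2%), a smaller share than the 73.3% of complex V. NDUFS5, a small accessory subunit on the intermembrane-space side, had the lowest fold change of all 75 genes. Its normalized counts were 877, 704 and 948 in chromatin and 7426, 7552 and 7762 in nucleoplasm, a 9.05-fold lower level in chromatin (-3.18, SE 0.0998, limma adjusted p = 1.71e-08). Next in this group came NDUFB3 of the membrane arm, with 368, 263 and 393 counts in chromatin and 2670, 2606 and 2764 in nucleoplasm (-2.99, SE 0.135). The libraries of NDUFB3 were separated by fraction, with chromatin replicate 2 the lowest. NDUFAB1, the mitochondrial acyl carrier protein that is also part of complex I, had 1357 to 1592 counts in chromatin and 6270 to 6597 in nucleoplasm (-2.11). A second table row of NDUFAB1, matching its span less well (Jaccard index 0.54, against 0.99), had 155, 174 and 136 counts in chromatin and 8.78, 8.61 and 5.91 in nucleoplasm. That row was 4.16 higher in chromatin on the log2 scale, and it is not part of the counts given here.

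A pair of accessory subunits went the other way. NDUFV3, a subunit of the NADH-binding module, had 2902, 3102 and 2780 counts in chromatin and 1531, 1525 and 1471 in nucleoplasm. All chromatin libraries were above all nucleoplasm libraries, by 1.94-fold (0.95, SE 0.0532, limma adjusted p = 3.16e-07), although the value was -0.37 under equal ERCC totals. NDUFA10, the accessory subunit gene of largest span (133.3 kb), had 8789, 8899 and 8552 counts in chromatin and 7490, 7778 and 7729 in nucleoplasm. The difference was small, 1.14-fold higher in chromatin (0.19, SE 0.0418, adjusted p = 0.00233), and -1.13 under equal ERCC totals.

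**Figure D3:**
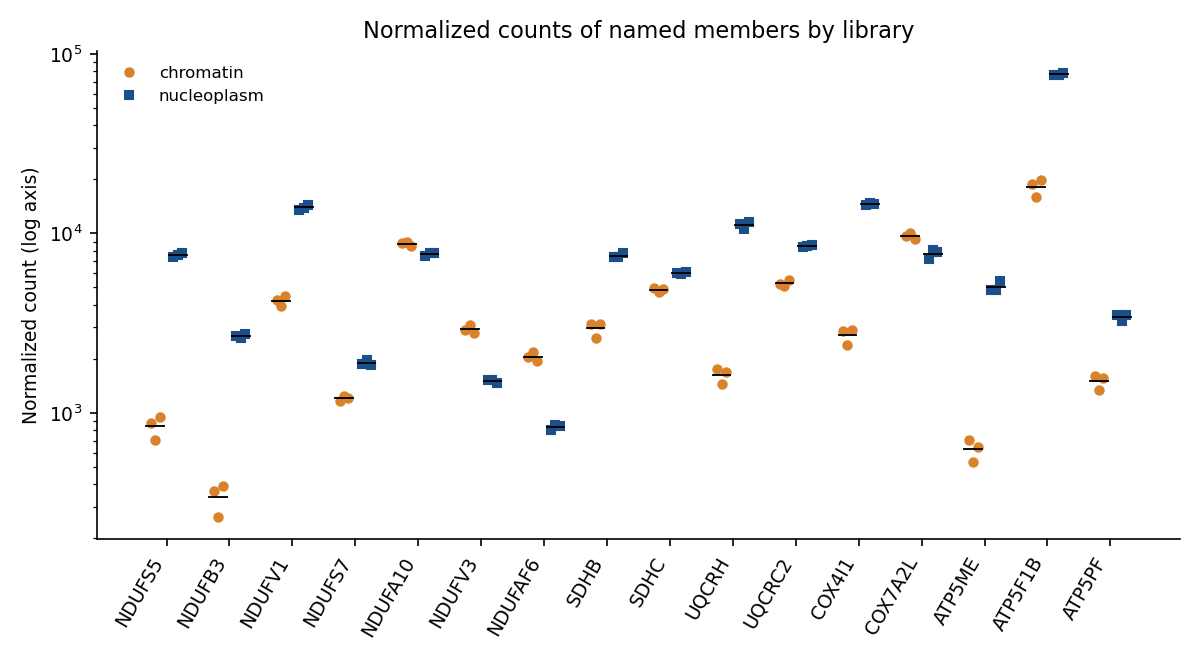
Normalized counts (log axis) of named respiratory chain genes in each of 3 chromatin libraries (circles) and 3 nucleoplasm libraries (squares), with black bars for the mean of a fraction. For NDUFA10, NDUFV3, NDUFAF6 and COX7A2L the chromatin libraries sit higher by the size factors of the table and lower under equal ERCC totals; for the other genes shown the nucleoplasm libraries sit higher, except that SDHC turns to 0.15 under equal gene totals.

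The assembly factors of complex I are not part of the finished enzyme. Among the 8 tested, none was called, 5 were lower and 3 higher in chromatin, and the median was -0.58. That median depends on the settings: it was 0.0085 under a stricter limit for naming rows, -0.12 under equal gene totals, -1.90 under equal ERCC totals and -0.94 for rows that cover no other coding gene. NDUFAF6, a factor needed to assemble complex I, had the highest fold change of the 75 genes. It had 2040, 2178 and 1941 counts in chromatin and 807, 859 and 841 in nucleoplasm, a 2.45-fold higher level in chromatin without overlap (1.29, SE 0.0577, limma adjusted p = 8.3e-08). Under equal ERCC totals the value was -0.029, and the row of NDUFAF6, which spans 220.9 kb, also covered exons of PLEKHF2. NDUFAF5, a factor that modifies a core subunit, had 6153, 6413 and 6670 counts in chromatin and 4162, 4003 and 4329 in nucleoplasm (0.62, SE 0.0504; -0.70 under equal ERCC totals). NDUFAF7, a methyltransferase of a core subunit, stood at 0.25, with no overlap, and at -1.08 under equal ERCC totals. At the other end NDUFAF1 had 217, 204 and 278 counts in chromatin and 921, 900 and 931 in nucleoplasm (-1.99, SE 0.11). NDUFAF2, an assembly factor that spans 209.4 kb, had 750 to 909 counts in chromatin and 1832 to 2030 in nucleoplasm (-1.23). The median of the assembly factors was -0.20 relative to that of other protein-coding genes, and that of the accessory subunits -1.90, which is a description, since the difference between the groups was not tested.

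Complex II has 4 subunits, and only SDHB and SDHC had rows of their own. The iron-sulfur subunit SDHB had 3142, 2624 and 3107 counts in chromatin and 7375, 7395 and 7766 in nucleoplasm. Its fractions were apart by 2.55-fold (-1.35, SE 0.0725, limma adjusted p = 2.51e-07). The membrane anchor SDHC had 4957, 4718 and 4887 counts in chromatin and 6046, 5918 and 6095 in nucleoplasm, also without overlap. The difference was 1.24-fold (-0.31, SE 0.0419, adjusted p = 0.000112), and its direction turned under equal gene totals. The flavoprotein SDHA and the anchor SDHD fell in rows that spanned 220.1 and 150.6 kb and held other genes, so no value is given for either.

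Complex III genes were all lower in chromatin, with 4 of 8 called and a median of -2.09. UQCRH, the hinge protein beside cytochrome c1, had 1764, 1457 and 1687 counts in chromatin and 11323, 10628 and 11536 in nucleoplasm, a 6.84-fold lower level in chromatin (-2.77, SE 0.0746, limma adjusted p = 1.16e-08). UQCRHL, its single-exon copy, had 297, 251 and 280 counts in chromatin and 2073, 1982 and 2185 in nucleoplasm (-2.91, SE 0.0747). The copies differ little in sequence, and how reads were divided between them was not tested. UQCRC2, a core subunit of the matrix side, differed least, with 5249, 5079 and 5501 counts in chromatin and 8440, 8511 and 8645 in nucleoplasm (-0.69, SE 0.0454). Its partner UQCRC1 stood at -1.85 and the Rieske iron-sulfur protein UQCRFS1 at -2.20.

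Complex IV was the most mixed of the complexes, with 3 of 12 called, 9 lower, 1 higher and 2 not past the test, and a median of -1.76. COX4I1, the widespread isoform of subunit 4, had 2849, 2397 and 2908 counts in chromatin and 14298, 14782 and 14630 in nucleoplasm. It was 5.38-fold lower in chromatin (-2.43, SE 0.0736, limma adjusted p = 1.55e-08), with no overlap of the fractions. Of the tissue-restricted isoforms, COX4I2, COX6A2, COX7A1 and COX7B2 had no count in any of the 6 libraries. COX8C, a tissue-restricted isoform of subunit 8, only just reached the limit of 10 counts, with 5.82, 9.61 and 6.59 counts in chromatin and 13.2, 12.9 and 10.1 in nucleoplasm. Its fold change of -0.67 (SE 0.269, adjusted p = 0.0427) no longer passed without chromatin replicate 1 or 3, without nucleoplasm replicate 1 or 2, by edgeR, by DESeq2 or under some other settings. The next gene above the limit was COX6B2, a testis isoform of subunit 6B, with 76.9, 80.5 and 98.8 counts in chromatin and 104, 90.4 and 87.9 in nucleoplasm. These values overlapped (-0.14, SE 0.132, adjusted p = 0.332; 0.32 under equal gene totals), and the row also covered exons of another coding gene.

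Of the other isoforms of complex IV, COX7A2, the widespread isoform of subunit 7A, had 3143, 2718 and 3156 counts in chromatin and 6719, 6801 and 6924 in nucleoplasm (-1.18, SE 0.0635). COX7B had 4231, 3262 and 3940 counts in chromatin and 12028, 11585 and 12115 in nucleoplasm (-1.65, SE 0.0887). Both had all nucleoplasm libraries above all chromatin libraries. NDUFA4, first placed in complex I and now in complex IV, stood at -2.03 with 1827 to 2527 counts in chromatin and 8958 to 9158 in nucleoplasm. Its paralog NDUFA4L2, known as a hypoxia-induced gene, had only 133, 166 and 115 counts in chromatin and 100, 113 and 114 in nucleoplasm. The chromatin values of NDUFA4L2 were just above the nucleoplasm values, and the difference of 0.32 missed the test (SE 0.142, limma adjusted p = 0.0577; -0.99 under equal ERCC totals). The call of NDUFA4L2 depends on the settings, since the gene passed in the direction of chromatin under equal gene totals (0.78, limma adjusted p = 0.00102), by TMM scaling, edgeR and DESeq2, with a replicate block and without chromatin replicate 3. COX7A2L, a factor that joins complexes III and IV, had 9702, 10031 and 9249 counts in chromatin and 7221, 8057 and 7821 in nucleoplasm. Its chromatin values were above all nucleoplasm values (0.33, SE 0.0561, adjusted p = 0.000515), the value under equal ERCC totals was -0.996, and the row also covered exons of KCNG3.

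All 15 complex V genes tested were lower in chromatin, 11 of them were called, and the median was -2.11. ATP5F1B, the catalytic beta subunit, was the most abundant respiratory chain gene per kb of mRNA, with 18854, 15900 and 19919 counts in chromatin and 76100, 75777 and 78181 in nucleoplasm. Its fractions lay 4.23-fold apart (-2.08, SE 0.0821, limma adjusted p = 4.37e-08). Of the other parts of F1, alpha (ATP5F1A) stood at -2.15 and delta (ATP5F1D) at -2.11, near beta. Gamma (ATP5F1C) differed less and was not called (-1.62), and epsilon (ATP5F1E) had no row of its own. ATP5ME, subunit e at the interface of the ATP synthase dimer, differed most, with 709, 536 and 645 counts in chromatin and 4817, 4828 and 5404 in nucleoplasm, a 7.99-fold lower level in chromatin (-2.998, SE 0.101). ATP5PF, the coupling factor in the stalk, differed least, with 1614, 1344 and 1554 counts in chromatin and 3500, 3254 and 3520 in nucleoplasm (-1.19, SE 0.074). Neither gene had overlapping fractions.

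The c ring of complex V is built from a single protein that ATP5MC1, ATP5MC2 and ATP5MC3 all encode with different import peptides. ATP5MC1 had 717 to 909 counts in chromatin and 3227 to 3447 in nucleoplasm (-2.02, SE 0.0847). ATP5MC2, which has a span of 44.7 kb, had 3420 to 3726 and 9420 to 9860 (-1.44, SE 0.0476). ATP5MC3 had 1877 to 2382 and 10367 to 10961 (-2.29, SE 0.0857). No fraction overlapped in these genes, and the differences between them were not tested. ATP5MGL, a single-exon copy of the subunit g gene and the shortest gene at 0.799 kb, had 53.6, 32.4 and 40.6 counts in chromatin and 274, 271 and 251 in nucleoplasm (-2.65, SE 0.171).

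A readthrough gene and rows shared with other genes need care. NDUFC2-KCTD14 joins the accessory subunit gene NDUFC2 to a neighboring gene. Its row stood at -1.95 with 746 to 854 counts in chromatin and 3067 to 3233 in nucleoplasm. The same row holds NDUFC2, and how the reads divide between these genes was not tested. In all, 8 of the 75 rows also covered exons of another coding gene. The other 67 gave 33 calls in nucleoplasm and a median of -1.99. Without the single-exon copies UQCRHL and ATP5MGL, 31 of 73 were called. Annotated pseudogenes of any class carry the names of 40 of the 75 genes, up to 17 for the complex IV subunit gene COX6C, and reads could be split among them. Of these 40 genes 20 were called, with a median of -2.01, and of the other 35 genes 13 were called, with a median of -1.82.

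The 19 genes without a row of their own included NDUFV2, SDHA, SDHD, UQCR11, COX6A1, COX6B1, COX8A, ATP5F1E and ATP5MG. They fell in 18 rows of 17.3 to 372.1 kb that matched another gene better or none. The log2 fold changes of these rows ran from -2.60 to 1.01, with 15 below 0 and 3 above. These values cannot be assigned to any of the 19 genes. Among them, the row that holds NDUFC2 is also the tested row of the readthrough gene NDUFC2-KCTD14, at -1.95.

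Gene span went with the fold change. Of 35 genes spanning under 10 kb, 22 were called in nucleoplasm with a median of -2.20. Of 33 genes spanning 10 to 50 kb, 9 were called with a median of -1.71, and of 7 spanning over 50 kb, 2 were called with a median of -1.23. Other protein-coding genes ran the same way from a higher level: 15.1%, 5.35% and 1.78% were called in the same classes, with medians of -0.77, -0.53 and -0.17. Over the 75 genes, log2 span and log2 fold change had a Pearson r of 0.38 and a Spearman rho of 0.36, and over 12417 other protein-coding genes 0.20 and 0.23. With the length of the canonical mRNA in place of the span, the values for the 75 genes were 0.43 and 0.41. These are correlations across genes measured in the same 6 libraries, and genes are not independent replicates. Exceptions at both ends were plain. The accessory subunits NDUFS4 and NDUFA12 span 122.7 and 108.5 kb and stood at -2.33 and -2.50, and NDUFAF3, an assembly factor gene of 3.04 kb, stood at -0.23, which turned positive under equal gene totals.

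**Figure D4:**
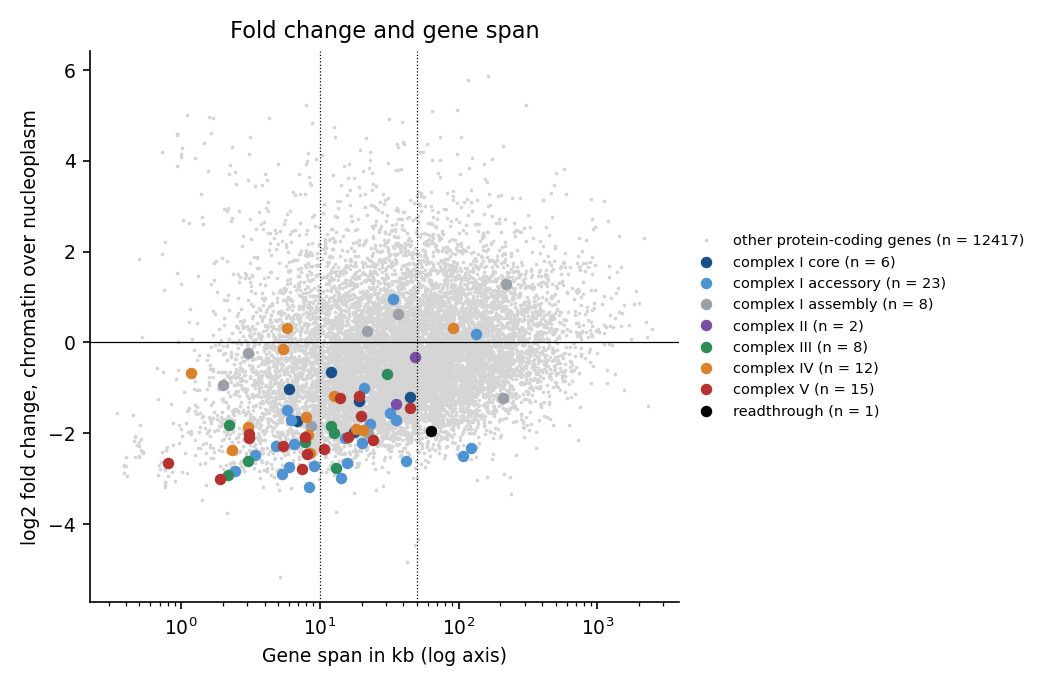
Log2 fold change of chromatin over nucleoplasm against gene span in kb (log axis), for 75 respiratory chain genes colored by complex and for 12417 other protein-coding genes in gray, by the size factors of the table. Dotted lines mark 10 and 50 kb; the median of the respiratory chain genes goes from -2.20 to -1.71 to -1.23 over the classes, and equal ERCC totals shift all points down together.

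A total of 9 tested rows fell whole inside an intron of a respiratory chain gene on the same strand, and 6 of them were called in chromatin, against 76.0% of 3164 such rows in other protein-coding genes. The share was no higher than that background, so it is no result about these genes. An example is NDUFS4, an accessory subunit gene that was 5.03-fold lower in chromatin, with 302, 307 and 337 counts in chromatin and 1604, 1568 and 1590 in nucleoplasm. A row at chr5:53563230-53565691 (hg38) inside an NDUFS4 intron had 340, 328 and 335 counts in chromatin and 6.14, 12.9 and 12.7 in nucleoplasm (4.92, SE 0.248, limma adjusted p = 1.72e-07). A second row in the same gene, at chr5:53606140-53613863, had 867, 1063 and 889 counts in chromatin and 53.5, 68.9 and 54.9 in nucleoplasm (3.97, SE 0.123). Neither locus overlapped between fractions, and the gene and its intronic loci went in opposite directions.

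Rows inside introns of NDUFB6, NDUFA10, COX7A2L and NDUFS5 stood at 4.604, 3.81, 3.41 and 1.92, and a row inside NDUFA6 at 0.51, a value that falls below 0 under equal ERCC totals. The row in NDUFB6 carries the name of the pseudogene DFFBP1. The 2 remaining rows lay inside introns of the readthrough gene ATP5MF-PTCD1: an unnamed row, also inside ATP5MF, stood at 2.98, and a processed pseudogene at -1.71 was the only 1 of the 9 that was lower in chromatin. Strand was kept in the short-read library preparation, and whether the intronic rows are separate transcripts or pieces of the unspliced host transcript was not tested.

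Factors that build the chain but carry other symbols were less far toward nucleoplasm. Of 54 listed carriers and assembly factors, 41 were tested, and 5 of these (12.2%) were called in nucleoplasm. At any fold 26 were lower, 8 higher and 7 not past the test, with a median of -0.83 (-2.16 under equal ERCC totals). Over all genes 8.47% were called in nucleoplasm, 45.2% were lower and 44.2% higher. Over other protein-coding genes these shares were 5.48%, 57.3% and 30.3%, the background for the counts here and for the regulators below. CYC1, the cytochrome c1 subunit of complex III, stood at -2.11 like its neighbors in the complex, and cytochrome c itself (CYCS) at -1.22. The 8 factors higher in chromatin ran from COA5 (0.26) to ATPSCKMT (1.37), and included the complex III factor TTC19 (0.65), the complex IV copper factor COX11 (0.85) and CMC1 (1.08). Under equal ERCC totals ATPSCKMT stood at 0.046, and the other 7 were below 0. Among 13 regulators of these genes, 6 were lower, 6 higher and 1 not past the test, with a median of 0.15 that became -1.17 under equal ERCC totals. NRF1, a main activator of respiratory chain genes, stood at 0.27 (below 0 under equal ERCC totals), the ETS factor GABPA at -0.75, YY1 at -0.56 and the mitochondrial transcription factor TFAM at -0.88.

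Subunits encoded by mitochondrial DNA were also present in these nuclear fractions. Of 13 such mRNAs 9 had a row of their own and were tested, with a median of -1.45. Of these 8 were lower in chromatin, against 45.2% of all genes and 57.3% of other protein-coding genes. MT-CO1, a core subunit of complex IV, averaged 25522 normalized counts in chromatin and 102127 in nucleoplasm (-2.001), and MT-ND6, a complex I subunit, 5834 and 5349 (0.11, limma adjusted p = 0.44). Summed over the 9 with a row, and so without the others listed, the mitochondrial mRNAs had 74350 to 84684 counts in the chromatin libraries. In the nucleoplasm libraries these mRNAs had 223142 to 260881. They move with the fractions in the same direction as the nuclear-encoded genes, and the part of RNA from outside the nucleus in those results was not tested.

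Long reads gave levels for the chromatin fraction alone, in the length-scaled unit TPM, whose values sum to the same total in every library. The paper reports that direct cDNA libraries lose the strand of origin, so that some reads map and assemble on the wrong strand. It also reports palindromic reads, attributed to cDNA synthesis, that can distort transcript abundance. RNA for these libraries was polyadenylated with an enzyme before priming. How these points affect the TPM given here was not tested. Of the 98 genes, 91 were above 0 in both libraries and 7 were at 0 in both, namely COX4I2, COX6A2, COX7A1, COX7B2, COX8C and the readthrough genes NDUFC2-KCTD14 and ATP5MF-PTCD1. NDUFC2, which shares the short-read row of NDUFC2-KCTD14, had 42.2 and 43.6 TPM. All 98 genes summed to 5331 and 6330 TPM. ATP5F1B was the highest, at 373 and 407 TPM, followed by UQCRH at 319 and 179 and ATP5ME at 190 and 306. By group, 19 complex V genes summed to 1764 and 2241 TPM, 30 complex I accessory subunits to 1139 and 1550, 19 complex IV genes to 962 and 1014, 9 complex III genes to 799 and 883, 4 complex II genes to 232 and 328, 7 core subunits of complex I to 237 and 140 and 8 assembly factors to 198 and 173. These sums differ in their number of genes. The libraries were loosely matched gene by gene: over 91 genes the SD of the log2 ratio of replicate 2 to replicate 1 was 1.30 and Pearson r of the log2 values was 0.74. SDHD, for example, had 6.22 and 82.1 TPM.

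Transcripts annotated as protein coding held 61.0% and 67.5% of the long-read TPM of these genes in the 2 libraries, retained-intron transcripts 11.4% and 11.6%, and transcripts assembled without a reference entry 18.9% and 15.8%. Of reference transcripts alone, protein-coding types held 75.3% and 80.2% of TPM in these genes, against 72.8% and 73.8% over all protein-coding genes. Retained-intron types held 14.1% and 13.8%, against 15.3% and 14.7%. The retained-intron shares were near that background and are no result about these genes. All TPM of NDUFS5 in both libraries, and 98.9% and 97.1% of that of SDHB, came from protein-coding transcripts, whereas in ATP5F1B 88.1% and 90.4% came from an assembled transcript. In UQCRH the libraries differed: 22.0% and 83.9% of its TPM came from retained-intron transcripts, and 61.8% and 0% from an assembled one. Of the 19 genes without a short-read row, 18 were above 0 in both long-read libraries, with COX8A at 189 and 178 TPM and ATP5F1E at 67.9 and 44.9 TPM. SDHA had 25.1 and 5.84 TPM, of which 99.8% and 77.2% came from retained-intron transcripts.

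Over the 75 genes, the mean long-read TPM and the mean short-read chromatin count per kb of mRNA had a Pearson r of 0.53 and a Spearman rho of 0.45 on the log2 scale, as a description across genes. With counts not divided by length the rho was 0.21. ATP5F1B was highest by both methods, at 390 TPM and 10361 counts per kb. NDUFV1 had 2709 counts per kb but only 8.02 and 9.82 TPM, and the chromatin-side genes NDUFAF5 and NDUFAF6 had 1177 and 1144 counts per kb and 10.3 and 10.6 TPM on average.

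**Figure D5:**
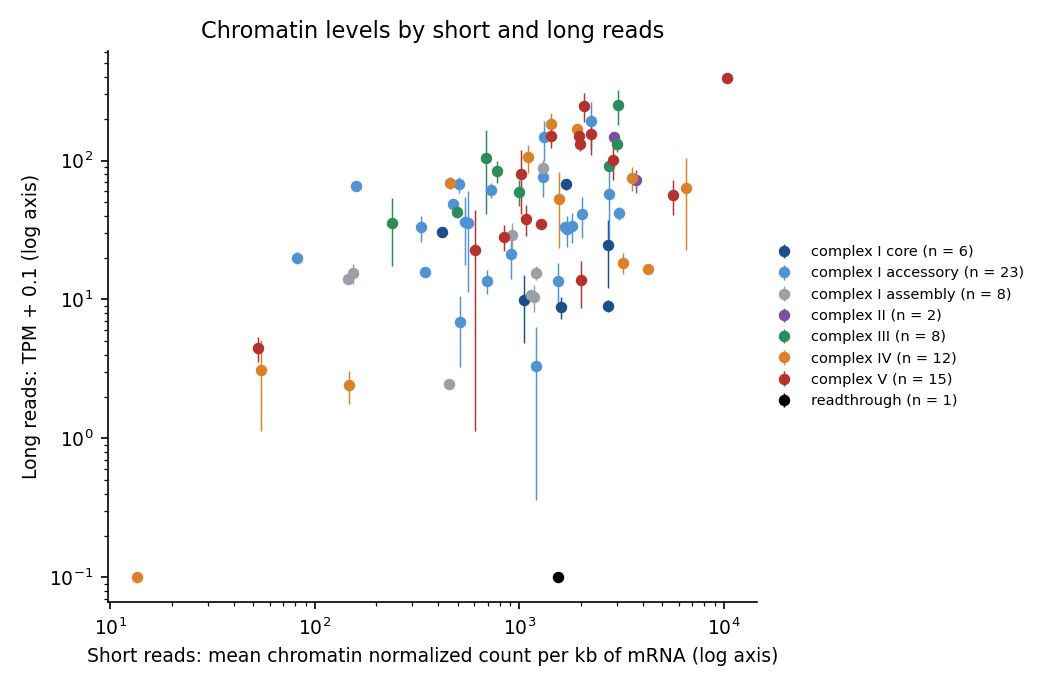
Long-read TPM (plus 0.1, log axis) against the mean short-read chromatin normalized count per kb of mRNA (log axis) for 75 respiratory chain genes, colored by complex; points are means and vertical bars join the values of 2 long-read libraries. ATP5F1B is at the top right (390 TPM, 10361 counts per kb), and COX8C and NDUFC2-KCTD14 at the bottom are at 0 TPM.

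Promoters of these genes are known for binding sites of NRF1, ETS factors such as GABP, and YY1. RefSeq promoter windows of 300 bases, from 250 bases before to 50 after the start site (GRCh38.p14), were matched for 60 of the 75 genes and searched on both strands. The core of the NRF1 element, CGCATGCG, which reads the same on both strands, was found in 8 of 60 windows (13.3%) and in 2.85% of 15345 protein-coding windows. The ETS word ACTTCCGG was found in 6 (10.0%) and 6.32%, and the YY1 word AAGATGGCG in 6 (10.0%) and 2.80%. At least 1 of the 3 words was found in 18 windows (30%), against 11.2% of protein-coding windows. A match is a description of the letters in the window, not a binding site.

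Of the 18 genes with any of the words, 17 were lower in chromatin, close to the share among all respiratory chain genes (67 of 75). The count is therefore no result about the words. The exception was NDUFAF5, which is below 0 under equal ERCC totals. Genes with the NRF1 word had a median fold change of -1.53 against -1.89 for those without, and they ran from ATP5ME at -2.998 to NDUFAF5 at 0.62. Genes with the ETS word had a median of -2.42 against -1.78, and those with the YY1 word -1.60 against -1.85. The following stretches, from 120 bases before to 30 after the start, are shown because each of the words stands in at least 1 of them and because the NRF1 word stands in genes from -2.998 to 0.62, with the words in capitals. ATP5ME, NDUFA8 and UQCRH are far on the nucleoplasm side, NDUFS7 is the core gene nearest to 0 and holds an NRF1 and a YY1 word, and NDUFAF5 is higher in chromatin except under equal ERCC totals. In NDUFA8 and NDUFAF5 the NRF1 word starts 3 bases before the start site.
ATP5ME, chr4:674247-674396, minus strand: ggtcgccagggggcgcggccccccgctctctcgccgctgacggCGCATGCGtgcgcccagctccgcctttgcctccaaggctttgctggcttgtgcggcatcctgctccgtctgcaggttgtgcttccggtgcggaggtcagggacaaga
NDUFA8, chr9:122159750-122159899, minus strand: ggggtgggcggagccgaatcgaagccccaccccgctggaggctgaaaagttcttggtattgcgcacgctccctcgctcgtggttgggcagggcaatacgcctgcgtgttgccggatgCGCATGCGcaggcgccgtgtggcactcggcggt
UQCRH, chr1:46303578-46303727, plus strand: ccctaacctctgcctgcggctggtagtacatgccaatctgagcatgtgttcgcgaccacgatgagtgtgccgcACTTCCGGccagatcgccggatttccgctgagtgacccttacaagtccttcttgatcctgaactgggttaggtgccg
NDUFS7, chr19:1383787-1383936, plus strand: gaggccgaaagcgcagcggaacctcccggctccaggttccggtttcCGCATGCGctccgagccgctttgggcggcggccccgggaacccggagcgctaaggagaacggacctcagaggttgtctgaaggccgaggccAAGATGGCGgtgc
NDUFAF5, chr20:13784908-13785057, plus strand: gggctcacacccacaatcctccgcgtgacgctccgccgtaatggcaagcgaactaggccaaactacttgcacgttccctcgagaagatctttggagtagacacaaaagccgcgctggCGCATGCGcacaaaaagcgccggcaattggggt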

How the data were processed

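RNA from chromatin and nucleoplasm of HAP1 nuclei was measured in 3 short-read libraries per fraction and in 2 long-read chromatin libraries. Per the labels and the study's methods, the authors aligned short reads to hg38 with HISAT2 2.1.0, assembled and counted them with StringTie, and deposited counts divided by DESeq2 size factors, which is the signal per gene used here. Long reads were aligned with minimap2, and the authors deposited StringTie TPM per transcript.

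Each nonzero short-read value was a whole multiple of the smallest value in its library (100% of values, tolerance 0.01), which gave recovered reads. Genes were named from GENCODE release 44, MSTRG rows by the same-strand gene of largest span Jaccard index, at least 0.5. The test took genes that reached 10 normalized counts in 3 libraries and had a row of more than 200 bases, by limma 3.58.1 (R 4.3.3) on log2(value + 1) with a mean trend; p-values were adjusted by the Benjamini-Hochberg method. The added 1 shrinks the fold changes of genes with few counts. Calls required an adjusted p under 0.05 and a difference above 4-fold. On the recovered reads, edgeR 4.0.16 called 2167 genes in nucleoplasm and 5675 in chromatin, and DESeq2 1.42.0 called 1961 and 5846. In simulated counts for the 26066 genes with 200 changed by 3 on the log2 scale, limma recovered 200. Few genes were changed in that simulation, by a large step and with a chosen spread. It checks that the code runs and does not test the calls made in these libraries.

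The members and gene lists were chosen with earlier results of these data known. Named genes are the extremes and the most abundant per kb of each complex, complex II, the complex I core, F1, subunit c and isoform genes, the 3 shortest and 3 longest, those higher in chromatin and those at the limit of 10 counts; COX6C, NDUFA6, NDUFA8, NDUFA12, NDUFB3, NDUFB6, NDUFS4, NDUFAF3, UQCRC1 and UQCRFS1 were added after their values were seen. Alternatives were other scalings, tools, pseudocounts, filters, naming limits and left-out libraries. A protein comparison was not run. The values of 1 gene that this rule names are not reported here.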

Additional observations from a re-analysis of the deposited data

How the results depend on the processing

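Scaling moved the results most. Under equal ERCC totals 63 members were called in nucleoplasm, against 34.4% of all genes and 39.3% of other protein-coding genes. The count higher in chromatin was 0, against 22.7% and 5.09%. The medians were -3.26 over all members, -3.43 for complex I subunits and -1.90 for complex I assembly. They were -2.15, -3.42, -3.09 and -3.43 for complexes II to V, and -3.52, -3.03 and -2.55 from the shortest to the longest span class. Under equal gene totals 17 were called in nucleoplasm, against 3.83% of all genes and 1.35% of other protein-coding genes. The same medians, in that order, were -1.47, -1.64, -0.12, -0.37, -1.63, -1.30, -1.65, -1.74, -1.24 and -0.76. Directions reversed under equal ERCC totals for NDUFAF6 (-0.029), NDUFV3 (-0.37), COX7A2L (-0.996), NDUFA4L2 (-0.99), NDUFA10 (-1.13), NDUFAF7 (-1.08) and NDUFAF5 (-0.70), and under equal gene totals for SDHC (0.15), NDUFAF3 (0.23) and COX6B2 (0.32). With a 2-fold minimum 61 members were called in nucleoplasm and 1 in chromatin. The share of all genes called at that minimum was not calculated, so these counts have no background beside them.

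A naming limit of 0.8 on the Jaccard index, which left 65 members, gave medians of 0.0085 for complex I assembly, a reversed direction, -1.80 for 10 to 50 kb and -1.59 for over 50 kb. DESeq2 gave -0.49 for complex I assembly, -0.74 for complex II and -1.61 for 10 to 50 kb. Classes at 5 and 20 kb gave -2.01 and -1.39 for the middle and longest class, and the span of the table row gave -0.77 for the longest. Spearman rho with length was 0.39 with a mean of at least 50 counts, 0.38 with the span of the table row, 0.47 with the union of exons and 0.41 with the canonical transcript, the last chosen after seeing the data. Rows with no other coding gene, also chosen then, gave -2.23 for complex I subunits and -0.94 for complex I assembly. Reference transcripts alone summed to 4826 TPM on average, against 5831, and short-read counts not divided by length gave a rho of 0.21 with long reads.

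Leaving out 1 library at a time gave 30 to 35 members called in nucleoplasm, 66 to 67 lower, 6 to 7 higher, 0 called in chromatin, 6 to 7 intronic loci called and a median of -1.99 to -1.88. Medians ranged from -2.15 to -2.04 for complex I subunits, -0.62 to -0.55 for complex I assembly, -0.86 to -0.78, -2.18 to -1.99, -1.81 to -1.67 and -2.17 to -2.05 for complexes II to V, and -2.25 to -2.12, -1.73 to -1.66 and -1.30 to -1.16 from short to long spans. The rank correlation with span was 0.35 to 0.36, and with long reads 0.40 to 0.46. Same-numbered libraries of the fractions deviated together only weakly (r of 0.087, 0.053 and 0.063), although each correlated best with its own number. Both fractions came from 3 cultures, but the sources used here do not say that a number marks the same culture in both; with a replicate block 33 members were called in nucleoplasm, and COX8C no longer passed (adjusted p = 0.067) while NDUFA4L2 did (0.048). Depth limits COX8C, whose values are near the limit of 10 counts.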
